A study of Mus musculus with 9 samples.

Results

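Transcripts of 10 BCL2 family genes, the regulators of mitochondrial apoptosis, were measured by RNA sequencing in the livers of 9 female mice. The genes were chosen by symbol: the pro-survival genes Bcl2, Bcl2l1 and Mcl1, the effectors Bax and Bak1, and the BH3-only genes Bid, Bcl2l11, Bmf, Bbc3 and Pmaip1. All 10 were found among the 55401 genes of the count table, and all 10 were among the 15717 genes that had enough counts to be tested. The conditions compared were healthy livers, untreated HCC (hepatocellular carcinoma) and miR-22-treated HCC, with 3 livers each. All 3 groups were wild-type FVB/N mice per the protocol and methods, although the strain field of the labels reads C57BL/6. Both HCC groups received plasmids for HA-myr-AKT and Nras-V12 with the sleeping beauty transposase by hydrodynamic tail vein injection at 6 weeks of age. At 1 week after the oncogenes they received AAV8, a liver-tropic viral vector, which was blank in untreated HCC and carried miR-22 in miR-22-treated HCC, and livers were taken at 5 weeks after the oncogenes. Per the methods the vector used the CMV promoter, which is not specific to hepatocytes. Healthy livers were from mice with neither oncogenes nor vector and with no age at collection stated, so oncogenes, injection and blank AAV8 cannot be told apart in a comparison with them. Hydrodynamic delivery reaches some hepatocytes and not others, and the sequenced RNA was from liver tissue with no separation of tumor from other cells stated.

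BCL2 family proteins act at the outer membrane of mitochondria, where BAX and BAK (from Bak1) form the pores that release cytochrome c and start the caspase cascade. The pro-survival proteins BCL2, BCL-XL (from Bcl2l1) and MCL1 hold these effectors and the BH3-only proteins in check. BH3-only proteins relay stress signals: BID is cleaved downstream of death receptors, BIM (from Bcl2l11), BMF and PUMA (from Bbc3) respond to loss of growth signals or attachment and to DNA damage, and NOXA (from Pmaip1) binds mainly MCL1. In hepatocytes, BCL-XL and MCL1 are the survival proteins on which the cells are known to depend.

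Because one HCC group received miR-22, the mature miRNA and its seed matches in the family are shown first. The mature mmu-miR-22-3p sequence from RefSeq lies at chr11:75463772-75463793 on the plus strand of GRCm38.p6, with the seed (bases 2 to 8) in capitals. The other lines are stretches of 22 bases from 3′ UTRs in GRCm39 (GENCODE M39, canonical transcripts) with the DNA letters that pair with the seed, GGCAGCT, in capitals. Of the 10 genes, 2 held such a match, Bmf with a match at base 189 and another at base 2343 after the stop codon, and Bcl2l11 with a match at base 1616. The Bmf stretches are at chr2:118362843-118362864 and chr2:118360689-118360710 on the minus strand, and the Bcl2l11 stretch is at chr2:128001851-128001872 on the plus strand.
mmu-miR-22-3p: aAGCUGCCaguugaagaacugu
Bmf, base 189: actgttgaaggagaGGCAGCTg
Bmf, base 2343: tccaacctcttggaGGCAGCTg
Bcl2l11, base 1616: aacttcagacgtcaGGCAGCTt
Such a match was found in 2929 of 20854 protein-coding 3′ UTRs (14.0%), and it is more frequent in long ones. Among 3′ UTRs of 0.8 to 1.25 times the length of that of Bmf (3801 bases), 29.6% held a match, and for Bcl2l11 (4227 bases) 31.8%. Bcl2, whose 3′ UTR of 5086 bases is the longest of the family, held no match, and neither did the other members. A match is a run of letters and not a measured binding site. The 2 genes that passed the test between the HCC groups were Bmf, which has 2 matches and was higher with miR-22, and Bcl2, which has none and was lower. Whether miR-22 acts on either transcript was not tested.

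**Figure D1:**
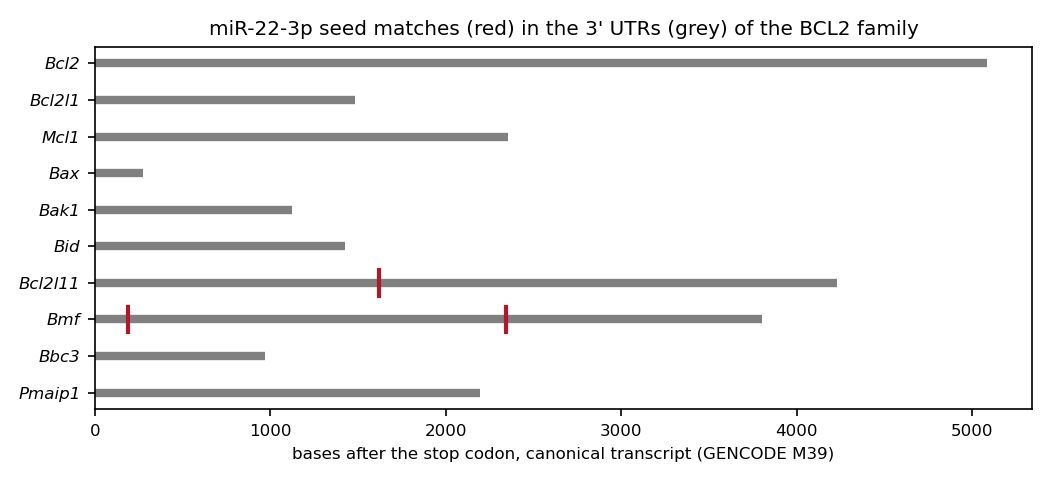
Each grey line is the 3′ UTR of a BCL2 family gene, drawn to scale in bases after the stop codon (x axis), and red ticks mark letters that pair with the miR-22-3p seed. Ticks are seen in Bmf at bases 189 and 2343 and in Bcl2l11 at base 1616, and in no other member.

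Library totals ran from 18258660 to 20964551 counts (healthy), from 18293676 to 23908392 (untreated HCC) and from 16664659 to 20459853 (miR-22-treated HCC). Counts assigned to the mouse genes Akt1 and Nras were highest in untreated HCC. They do not separate injected oncogenes from the mouse's own transcripts, since healthy livers without plasmids had such counts too. Akt1 was at 105 ± 2.95, 1484 ± 274 and 857 ± 222 CPM (counts scaled by TMM to a common library size, mean ± SD, n = 3) in healthy livers, untreated HCC and miR-22-treated HCC, respectively, and Nras at 28.6 ± 1.51, 69.8 ± 7.00 and 54.5 ± 1.08 CPM. Markers of hepatocytes summed to between 123491 and 127937 CPM in healthy livers, against 49275.5 to 61518.9 for untreated HCC and 74096.6 to 92448.1 for miR-22-treated HCC, so hepatocyte RNA was present in each. Ductal markers (5 genes) summed to 29.4 to 41.8, 3320 to 6203 and 1560 to 2697 CPM in the same order, and proliferation genes (7 genes) to 8.79 to 14.4, 164 to 209 and 95.3 to 144 CPM. The ductal sum was mostly Spp1 (means of 26.8, 4614 and 2015 CPM), while Krt19, at 2.15, 3.95 and 3.86 CPM, overlapped between all groups and was not called. Neutrophil markers (8 genes, Ly6g at no more than 3 counts) summed to 1.83 to 4.58, 17.8 to 23.4 and 17.1 to 25.6 CPM, stellate cell and fibroblast markers (7 genes) to 252 to 285, 725 to 836 and 593 to 686 CPM, and endothelial markers (6 genes) to 329 to 413, 208 to 265 and 276 to 353 CPM. The endothelial list split in untreated HCC, where Stab2, Kdr and Clec4g were lower (3 of 6, against 18.1% of all tested genes) and Pecam1, Cdh5 and Lyve1 had log2 differences of 0.13, 0.06 and 0.63 and were not called by edgeR. DESeq2 called Lyve1 higher. The stellate cell and fibroblast sum was mostly collagen in HCC, and its members split in untreated HCC, with 4 higher (Col1a1, Col3a1, Acta2 and Pdgfrb), 2 lower (Lrat and Dcn) and Des not called, against 22.7% of all tested genes higher and 18.1% lower. T and NK cell markers (10 genes) summed to between 7.03 and 11.5 CPM over all livers, and of 8 tested, Cd4 was higher and Gzma lower in untreated HCC (40.8% of all tested genes were called), and Nkg7 was higher with miR-22 (13.8% were called). B cell markers (5 genes) summed to between 2.31 and 6.09 CPM. Macrophage markers (8 genes) summed to 375 to 482, 391 to 454 and 468 to 492 CPM, so the HCC groups did not overlap, and 2 were higher (Cd68 and C1qa) and 1 lower (Timd4) in untreated HCC, 3 of 8 against 40.8% of all tested genes. No marker was at 0 in all libraries. The part of these cell types in the differences that follow was not tested, and in whole liver a change in the number of cells of a type and a change in RNA per cell cannot be told apart.

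The first comparison asks how the family differs between untreated HCC and healthy livers. Here 7 of the 10 genes passed the test (adjusted p under 0.05 and fold change over 1.5), 6 higher and 1 lower, against 40.8% of all tested genes, of which 22.7% were higher and 18.1% lower. Pmaip1 (5.99-fold), Bcl2 (4.77-fold), Bax (3.12-fold), Bcl2l1 (2.20-fold), Bak1 (1.99-fold) and Mcl1 (1.54-fold) were higher in untreated HCC, and Bmf was 7.96-fold lower. Pro-survival genes and effectors thus rose together, 3 of 3 and 2 of 2, while the BH3-only genes split into 1 higher, 1 lower and 3 that did not pass. The levels of the 2 groups did not overlap for 7 of the 10 genes, against 65.3% of all tested genes. The median log2 fold change was 0.81 over the 10 genes and 0.01 over all tested genes.

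The comparison of miR-22-treated with untreated HCC asks what differs with the miR-22 vector. It gave 2 called genes of 10, against 13.8% of all tested genes: Bmf was 4.70-fold higher in miR-22-treated HCC (8.32% of tested genes were higher) and Bcl2 1.66-fold lower (5.47% were lower). The median log2 fold change was -0.25 over the family and 0.00 over all tested genes, and levels did not overlap for 5 genes (Bcl2, Bax, Bak1, Bid and Bmf), against 39.3% of tested genes. The count was 1 without untreated HCC replicate 3 or without miR-22-treated HCC replicate 3, and it was 3 without either liver numbered 4.

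In miR-22-treated HCC against healthy livers, 5 of 10 genes were called, against 24% of tested genes. Pmaip1 (4.80-fold), Bcl2 (2.87-fold), Bax (2.09-fold) and Bcl2l1 (1.94-fold) were higher (16.9% of tested genes were higher), and Bbc3 was 1.61-fold lower (7.05% were lower). Levels did not overlap for 6 of the 10, against 48.8% of tested genes, and the median log2 fold change was 0.54 against 0.02 over all tested genes. The 3 comparisons share their groups, so none of them is independent of the other two.

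**Figure D2:**
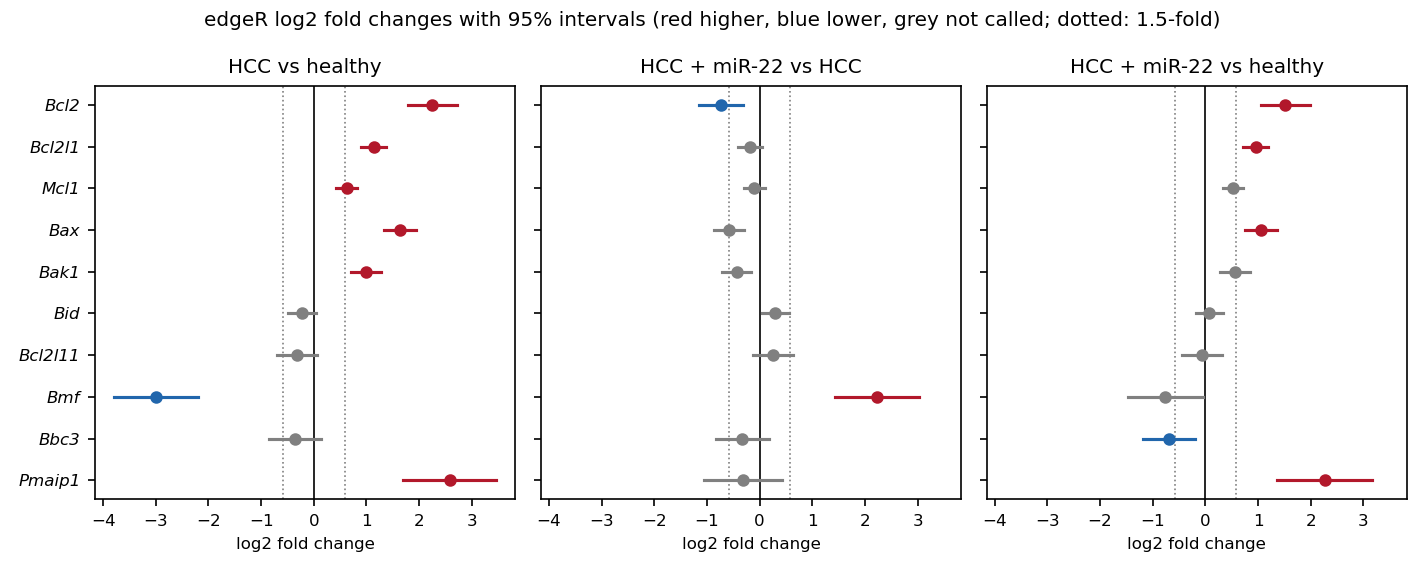
Log2 fold change (x axis) of each BCL2 family gene in the 3 comparisons, with points for edgeR estimates from 3 livers a group and bars for 95% confidence intervals (red higher, blue lower, grey not called, dotted lines at 1.5-fold). Bmf lies at -2.99 in untreated HCC against healthy livers and at 2.23 with miR-22, opposite in sign to Bcl2 at 2.25 and -0.73.

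Bcl2 (chr1:106465908-106642060, minus strand, GRCm39) encodes the founding pro-survival protein. It was at 2.70, 2.20 and 2.31 CPM in healthy livers, 11.4, 13.0 and 9.999 CPM in untreated HCC, and 6.85, 5.22 and 8.50 CPM in miR-22-treated HCC. The 3 groups stood apart without overlap, healthy livers lowest, untreated HCC highest and miR-22-treated HCC between them. Counts were low in healthy livers, 35 to 43 a library. The log2 fold change in untreated HCC was 2.25 (SE 0.211, 95% interval 1.80 to 2.71, edgeR adjusted p = 2.01e-06). With miR-22 it was -0.73 (SE 0.190, interval -1.15 to -0.32, edgeR adjusted p = 0.0149), and against healthy livers miR-22-treated HCC was still higher by 1.52 (edgeR adjusted p = 1.77e-04). The call with miR-22 was lost without untreated HCC replicate 3 (-0.64, edgeR adjusted p = 0.0735) and without miR-22-treated HCC replicate 3 (-0.58, edgeR adjusted p = 0.0652). The summed ductal markers (mostly Spp1), stellate cell and fibroblast markers (mostly collagen in HCC) and proliferation genes stood in the same order of groups as Bcl2. So did the means of Akt1 and Nras, and the cause of this shared order was not tested.

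Bcl2l1 (chr2:152622582-152673655, minus strand) encodes BCL-XL. Its levels were 36.9, 35.7 and 33.4 CPM in healthy livers, 85.4, 80.1 and 67.6 CPM in untreated HCC, and 59.5, 74.9 and 70.9 CPM in miR-22-treated HCC. Every HCC liver was above every healthy liver, and the HCC groups overlapped. The gene rose in untreated HCC by 1.14 on the log2 scale (SE 0.112, edgeR adjusted p = 2.93e-06) and in miR-22-treated HCC by 0.95 relative to healthy livers (edgeR adjusted p = 4.02e-05). Between the HCC groups the difference was -0.18, with an interval of -0.42 to 0.05 (edgeR adjusted p = 0.251).

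Mcl1 (chr3:95566026-95570487, plus strand) encodes a short-lived pro-survival protein that hepatocytes need. It was the most abundant transcript of the family, at 133, 136 and 135 CPM in healthy livers, 221, 194 and 207 CPM in untreated HCC, and 186, 188 and 207 CPM in miR-22-treated HCC. Healthy livers spanned 133 to 136 CPM, below all HCC livers, and the HCC groups overlapped. In untreated HCC the log2 difference from healthy livers was 0.62 (SE 0.0895, edgeR adjusted p = 7.21e-05), a 1.54-fold rise that is just past the fold threshold. Without untreated HCC replicate 2 it was 0.57 and no longer past it, with an adjusted p of 6.15e-04 in edgeR. In miR-22-treated HCC the gene was 1.44-fold above healthy livers (edgeR adjusted p = 7.16e-04) and not called, and the HCC groups differed by -0.10 (interval -0.29 to 0.09, edgeR adjusted p = 0.464).

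**Figure D3:**
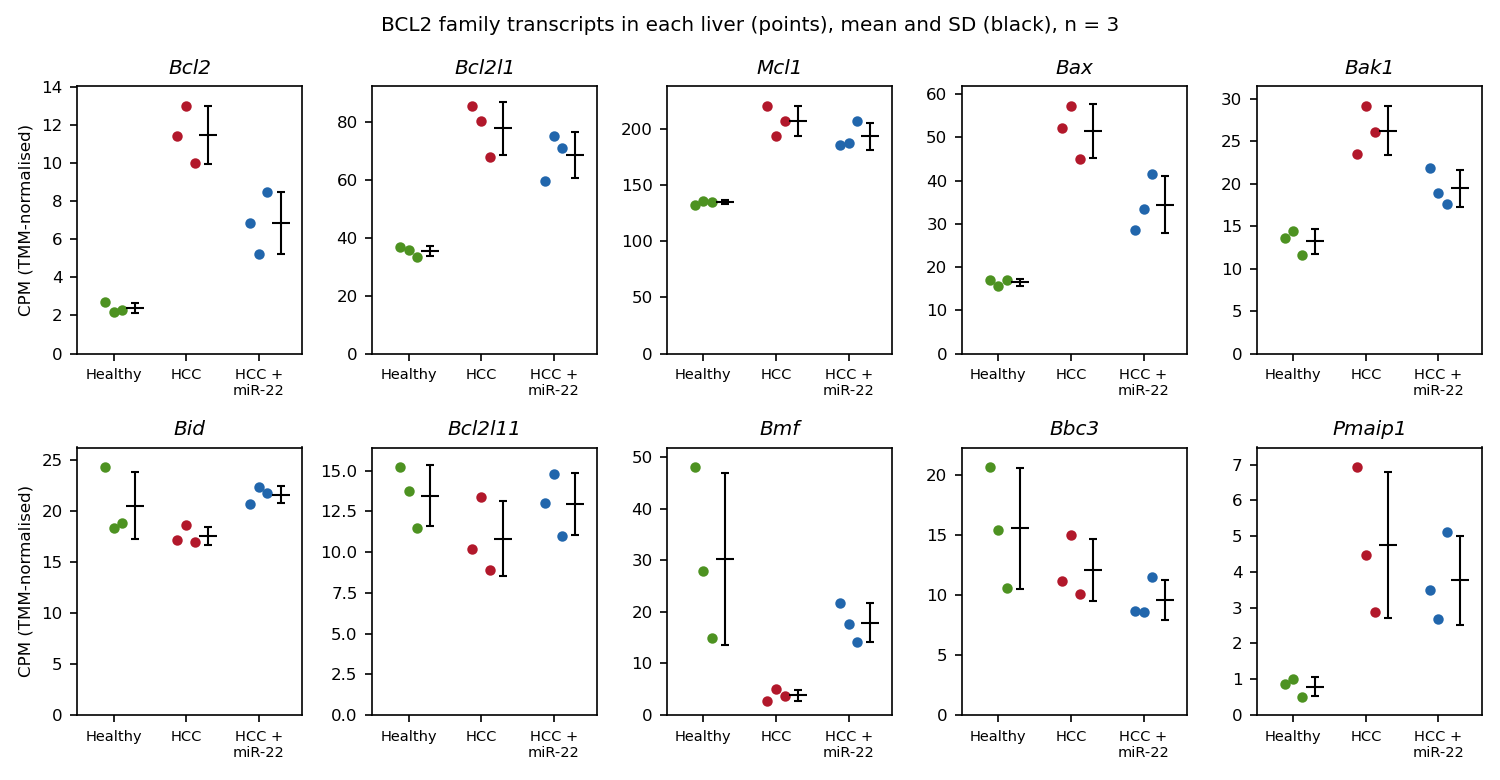
CPM (TMM-normalized, y axis from 0) of each BCL2 family gene in every liver, with points for livers in green (healthy), red (untreated HCC) and blue (miR-22-treated HCC) and black marks for mean and SD (n = 3). Bcl2 and Bax are lowest in healthy livers and highest in untreated HCC, and Bmf is lowest in untreated HCC, at 2.67 to 4.96 CPM, with healthy and miR-22-treated livers overlapping.

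Bax (chr7:45111015-45116325, minus strand) encodes the cytosolic effector that moves to mitochondria. It was at 17.1, 15.5 and 16.9 CPM in healthy livers, 52.3, 57.3 and 44.9 CPM in untreated HCC, and 28.5, 33.4 and 41.4 CPM in miR-22-treated HCC. The 3 groups did not overlap and stood in the same order as for Bcl2. Its rise in untreated HCC was 1.64 on the log2 scale (SE 0.139, edgeR adjusted p = 9.46e-07), and miR-22-treated HCC was 1.06 above healthy livers (edgeR adjusted p = 9.98e-05). With miR-22 the difference was -0.58 (SE 0.133, interval -0.87 to -0.29, edgeR adjusted p = 0.0082), and the 1.49-fold change was just under the fold threshold, so the gene was not called. It was called, in the same direction, under DESeq2 (-0.60, adjusted p = 9.31e-04), without untreated HCC replicate 4 (-0.67, edgeR adjusted p = 0.0054) and without miR-22-treated HCC replicate 4 (-0.73, edgeR adjusted p = 0.00114).

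Bak1 (chr17:27238784-27247983, minus strand) encodes the effector that sits in the outer membrane of mitochondria. The levels were 13.6, 14.4 and 11.6 CPM in healthy livers, 23.4, 29.1 and 26.1 CPM in untreated HCC, and 21.9, 18.9 and 17.6 CPM in miR-22-treated HCC. Again the groups did not overlap, with miR-22-treated HCC in the middle. The gene rose by 0.99 in untreated HCC (SE 0.129, edgeR adjusted p = 3.05e-05). With miR-22 it differed by -0.43 (edgeR adjusted p = 0.0261), a 1.35-fold change that was not called, and miR-22-treated HCC was 0.56 above healthy livers (edgeR adjusted p = 0.00512), 1.48-fold and not called. That last difference passed the threshold without healthy replicate 2 (0.62) or miR-22-treated HCC replicate 4 (0.63). Of its 2407 exonic bases, 437 lie opposite Ggnbp1, which had 50 to 150 counts, and the libraries did not record strand.

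Bmf (chr2:118359238-118380177, minus strand) encodes a BH3-only protein tied to the cytoskeleton and to loss of cell attachment. It was at 48.0, 27.9 and 15.0 CPM in healthy livers, 2.67, 4.96 and 3.73 CPM in untreated HCC, and 21.8, 17.6 and 14.2 CPM in miR-22-treated HCC. Untreated HCC was below every other liver, and the miR-22-treated livers overlapped the healthy ones. Healthy livers were spread widely, with an SD of 16.7 CPM around a mean of 30.3 CPM. Bmf fell by 2.99 on the log2 scale in untreated HCC (SE 0.368, interval -3.79 to -2.19, edgeR adjusted p = 1.89e-05) and rose by 2.23 with miR-22 (SE 0.367, interval 1.44 to 3.03, edgeR adjusted p = 1.32e-03). Both calls held without any one of the livers. Against healthy livers, miR-22-treated HCC differed by -0.76 (edgeR adjusted p = 0.09), by -1.10 without healthy replicate 3, the lowest of them (edgeR adjusted p = 0.00803), and by -0.28 without healthy replicate 1, the highest (edgeR adjusted p = 0.483). The summed hepatocyte markers and the summed endothelial markers both stood in the same order of groups as the means of Bmf, and the cause was not tested.

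Pmaip1 (chr18:66591604-66598636, plus strand) encodes NOXA and was among the least abundant members. It had 14, 16 and 9 counts in healthy livers, 148, 100 and 77 in untreated HCC, and 61, 42 and 108 in miR-22-treated HCC, or 0.88, 1.01 and 0.49 CPM, 6.93, 4.47 and 2.87 CPM, and 3.48, 2.68 and 5.13 CPM. All HCC livers were above all healthy livers, and the HCC groups overlapped. Its log2 fold change was 2.58 in untreated HCC (SE 0.407, interval 1.70 to 3.47, edgeR adjusted p = 1.49e-04) and 2.26 in miR-22-treated HCC against healthy livers (edgeR adjusted p = 1.11e-03). Between the HCC groups the difference was -0.32 (interval -1.06 to 0.42, edgeR adjusted p = 0.546), and its sign turned to 0.05 without untreated HCC replicate 2.

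Bbc3 (chr7:16042318-16052130, plus strand) encodes PUMA, a target of p53. Its levels were 20.6, 15.4 and 10.5 CPM in healthy livers, 11.2, 14.9 and 10.1 CPM in untreated HCC, and 8.62, 8.60 and 11.5 CPM in miR-22-treated HCC. All 3 groups overlapped, and healthy livers alone covered a range wider than either HCC group. The log2 difference was -0.36 in untreated HCC against healthy livers (interval -0.85 to 0.13, edgeR adjusted p = 0.192), where it was called without healthy replicate 3 (-0.59, edgeR adjusted p = 0.0311) and was -0.12 without healthy replicate 1 (edgeR adjusted p = 0.679). With miR-22 it was -0.33 (interval -0.83 to 0.17, edgeR adjusted p = 0.333). The call in miR-22-treated HCC against healthy livers (-0.69, edgeR adjusted p = 0.0336) was lost without healthy replicate 1 (-0.45), healthy replicate 2 (-0.70), miR-22-treated HCC replicate 2 (-0.63) or miR-22-treated HCC replicate 3 (-0.62), at edgeR adjusted p = 0.0721 to 0.15.

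Bid and Bcl2l11 passed no test. Bid (chr6:120862525-120894171, minus strand), the substrate of caspase 8, was at 24.3, 18.4 and 18.9 CPM in healthy livers, 17.1, 18.6 and 16.9 CPM in untreated HCC, and 20.7, 22.4 and 21.8 CPM in miR-22-treated HCC. The HCC groups did not overlap, and healthy livers overlapped both. The log2 differences were -0.22 in untreated HCC (interval -0.48 to 0.04, edgeR adjusted p = 0.13) and 0.30 with miR-22 (interval 0.04 to 0.56, edgeR adjusted p = 0.0886). Bid values are uncertain, since 3059 of its 9796 exonic bases lie opposite Bcl2l13, which had 872 to 1502 counts a library. Bcl2l11 (chr2:127967958-128004476, plus strand), which encodes BIM, was at 15.2, 13.7 and 11.5 CPM in healthy livers, 10.2, 13.4 and 8.92 CPM in untreated HCC, and 13.0, 14.8 and 11.0 CPM in miR-22-treated HCC. All its groups overlapped, with log2 differences of -0.31 in untreated HCC (interval -0.69 to 0.06, edgeR adjusted p = 0.144) and 0.25 with miR-22 (interval -0.12 to 0.63, edgeR adjusted p = 0.324). Against healthy livers, miR-22-treated HCC differed by 0.08 in Bid and by -0.06 in Bcl2l11.

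Levels were compared between genes as CPM per kilobase of the canonical transcript. Mcl1 led in all 3 groups, at 38.6 ± 0.534 CPM per kilobase in healthy livers, 59.4 ± 3.83 in untreated HCC and 55.4 ± 3.35 in miR-22-treated HCC (SD, n = 3). Bax came next at 16.9 ± 0.860, 52.8 ± 6.38 and 35.3 ± 6.69, and Bcl2l1 followed at 10.8 ± 0.535, 23.8 ± 2.80 and 21.0 ± 2.45. The ranges of Mcl1 and Bax overlapped in untreated HCC, where the lowest Mcl1 value was 55.6 and the highest Bax value 58.7 CPM per kilobase, but not in the other groups. Bmf had rank 5 in healthy livers at 6.52 ± 3.58, rank 10 in untreated HCC at 0.814 ± 0.247 and rank 6 in miR-22-treated HCC at 3.85 ± 0.819. In healthy livers Bmf (3.22 to 10.3) overlapped its neighbours Bid (8.35 to 11.0) and Bbc3 (3.93 to 7.67). Bcl2 and Pmaip1 were the lowest in healthy livers, at 0.332 ± 0.0362 and 0.290 ± 0.0978, and their ranges overlapped. These levels depend on the length used. With the union of all exons as length, Mcl1 kept its value and Bax was at 8.90, 27.7 and 18.6 CPM per kilobase in the same order of groups, so that in untreated HCC the lowest Mcl1 value (55.6) was above the highest Bax value (30.9). The order of the leading 3 was the same, and in healthy livers Bid dropped from rank 4 to rank 7, at 2.09, and Bmf was at rank 4.

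When summed by class, pro-survival transcripts made up 47.2%, 52.7% and 55.0% of the family's CPM per kilobase in the healthy livers, 53.07%, 47.6% and 53.04% in untreated HCC, and 54.9%, 55.0% and 53.6% in miR-22-treated HCC. Healthy livers overlapped both HCC groups in this share, and every miR-22-treated liver was just above every untreated HCC liver. Effectors took 22.03%, 23.02% and 24.7% in healthy livers, 37.0%, 41.2% and 37.1% in untreated HCC, and 29.1%, 30.0% and 32.5% in miR-22-treated HCC. BH3-only transcripts took 30.8%, 24.3% and 20.3%, then 9.96%, 11.2% and 9.82%, and then 16.0%, 15.0% and 13.9%. For both of these classes the 3 groups did not overlap and miR-22-treated HCC was in the middle. In sums rather than shares, BH3-only transcripts ran from 18.2 to 32.4 CPM per kilobase (healthy), from 15.1 to 19.4 (untreated HCC) and from 21.1 to 21.3 (miR-22-treated HCC), so healthy livers overlapped both HCC groups. Of these genes Bid had the highest mean, at 9.32, 7.97 and 9.82 CPM per kilobase in the same order. Bid values are uncertain, as stated above, and so are these sums and shares. Bmf alone made up 17.7% to 31.9% of the BH3-only sum in healthy livers but 3.36% to 5.51% of it in untreated HCC, and with miR-22 its part was 14.4% to 22.2%. With the union of all exons as length, that part was 34.3% to 51.5%, 6.23% to 10.95% and 26.3% to 39.02% in healthy livers, untreated HCC and miR-22-treated HCC, respectively. The BH3-only share of the family was then 12.2% to 22.7%, 5.63% to 7.16% and 9.02% to 10.6%, and the effector share 19.01% to 20.5%, 29.8% to 34.5% and 24.3% to 26.02%, so the sizes moved while the groups stood in the same order without overlap in both classes.

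**Figure D4:**
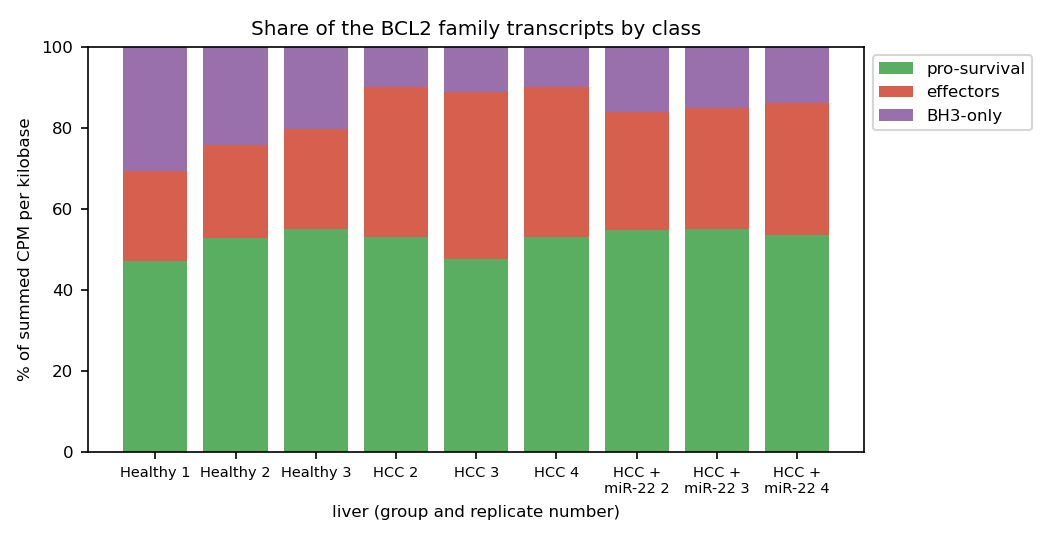
Stacked bars give, for each of the 9 livers (x axis), the percent of the family's summed CPM per kilobase (y axis) that fell to pro-survival genes (3, green), effectors (2, red) and BH3-only genes (5, purple). The BH3-only share is at most 11.2% in untreated HCC, at least 20.3% in healthy livers and 13.9% to 16.0% with miR-22.

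Ratios between members within a library do not depend on the scaling between libraries, and 4 ratios were compared between the 3 pairs of groups by a two-sided exact permutation test, for which 3 against 3 livers cannot give p below 0.1. The log2 ratio of Mcl1 to Bax counts was 2.96, 3.13 and 3.00 in healthy livers, 2.08, 1.76 and 2.20 in untreated HCC, and 2.71, 2.49 and 2.32 in miR-22-treated HCC. No groups overlapped, and all 3 differences (-1.02 in untreated HCC, 0.49 with miR-22 and -0.53 for miR-22-treated HCC against healthy livers) were at the smallest exact p of 0.1 (0.15 adjusted over the 12 comparisons). Bcl2l1 to Bax was 1.10 ± 0.108 in healthy livers, 0.59 ± 0.113 in untreated HCC and 1.00 ± 0.202 in miR-22-treated HCC (SD, n = 3). Its differences were -0.50 in untreated HCC and 0.41 with miR-22, both without overlap (exact p = 0.1, adjusted 0.15), and miR-22-treated HCC overlapped healthy livers (-0.10, exact p = 0.6, adjusted 0.655). In every untreated HCC liver both ratios, to which Bax is the denominator, were below those of every healthy liver.

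The ratio of Bcl2 to Bax went the other way. Its log2 was -2.66, -2.82 and -2.87 in healthy livers, -2.19, -2.14 and -2.17 in untreated HCC, and -2.06, -2.68 and -2.28 in miR-22-treated HCC. Untreated HCC was above healthy livers by 0.62 with no overlap (exact p = 0.1, adjusted 0.15). The miR-22-treated livers were spread across both other groups, with differences of -0.17 from untreated HCC (exact p = 0.5, adjusted 0.6) and 0.45 from healthy livers (exact p = 0.2, adjusted 0.267). Mcl1 to Pmaip1, a pro-survival gene against the BH3-only gene whose protein binds it, was 7.47 ± 0.548 in healthy livers, 5.54 ± 0.594 in untreated HCC and 5.73 ± 0.399 in miR-22-treated HCC (SD, n = 3). Both HCC groups were below healthy livers without overlap, by -1.94 and -1.74 (exact p = 0.1, adjusted 0.15), and they overlapped each other (0.20, exact p = 0.8).

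**Figure D5:**
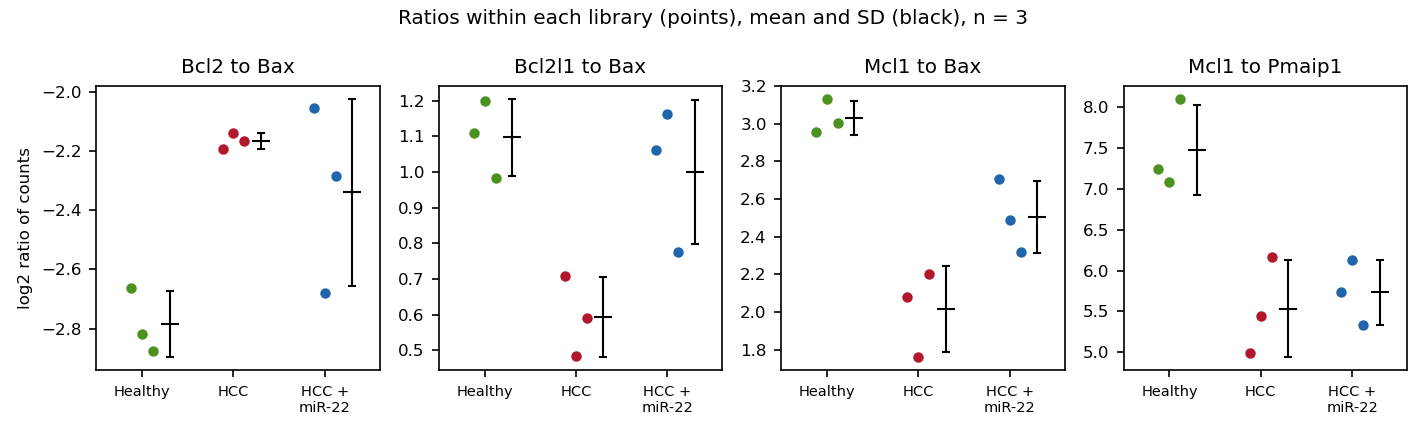
Log2 ratios of counts within each library (y axis, not starting at 0) for 4 pairs of BCL2 family genes, with points for livers of the 3 groups and black marks for mean and SD (n = 3). Mcl1 to Bax averages 3.03 (healthy), 2.01 (untreated HCC) and 2.50 (miR-22-treated HCC), with no overlap between groups.

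Of 12 other BCL2-related genes tested, 4 were higher and 1 lower in untreated HCC, a share near the 40.8% of all tested genes: Bcl2a1a, a pro-survival gene of blood cells, by 3.23, Bcl2l14 by 3.12, the effector-like Bok by 3.06 and Bcl2a1b by 2.51 on the log2 scale, while Bnip3, a mitophagy receptor with a BH3-like motif, fell by 1.74. Healthy livers had only 2, 2 and 1 counts of Bcl2a1a and 0, 4 and 3 of Bcl2l14, so the sizes of these differences are loosely set (intervals 2.00 to 4.46 and 1.67 to 4.57). Without healthy replicate 2, Bcl2l14 was at 3.76 in untreated HCC and at 3.55 in miR-22-treated HCC against healthy livers. The Bcl2a1 copies are near-identical, so the split of reads between them is uncertain. Neutrophils express Bcl2a1 genes, and 4 of the 8 neutrophil markers were tested. All 4 were higher in untreated HCC and in miR-22-treated HCC than in healthy livers, against 22.7% and 16.9% of all tested genes. The part of neutrophils in the Bcl2a1 differences was not tested. With miR-22, 1 of the 12 BCL2-related genes was higher (Bnip3, 1.20, edgeR adjusted p = 1.10e-04) and 1 lower (Bok, -0.65, edgeR adjusted p = 0.0207), against 13.8% of all tested genes. The Bok call was lost without untreated HCC replicate 3 (-0.44), miR-22-treated HCC replicate 2 (-0.65) or miR-22-treated HCC replicate 3 (-0.53). Against healthy livers, 4 were higher in miR-22-treated HCC, against 16.9% of all tested genes, led by Bcl2l14 (2.92), Bcl2a1a (2.66) and Bok (2.41). Bcl2l10 had 0 counts in all libraries. Bad, Bcl2l2, Bcl2l12, Bcl2l13, Bcl2l15 and Bnip3l were called in no comparison by edgeR or DESeq2, and Bik, a BH3-only gene, was called only by DESeq2, higher with miR-22 (1.02, DESeq2 adjusted p = 0.03, against an edgeR adjusted p = 0.0562).

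Downstream of mitochondria, 20 caspases and mitochondrial death factors were tested. Apaf1, the scaffold of the apoptosome (1.176), and Casp2 (0.71) were higher in untreated HCC, and 4 were lower, among them Endog (-1.38) and the initiator caspase Casp9 (-0.70), so that 6 of 20 were called against 40.8% of all tested genes. With miR-22, edgeR called 0 of the 20, against 13.8% of all tested genes, DESeq2 called 0, and 7 had an unadjusted p under 0.05 in edgeR. Apaf1 (0.75) was higher and Endog (-0.80) lower in miR-22-treated HCC than in healthy livers, 2 of 20 called against 24% of all tested genes, and that Apaf1 call was lost without healthy replicate 2 (0.63) or miR-22-treated HCC replicate 2 (0.57). Among 8 tested inhibitor of apoptosis genes, Birc5 (survivin, also a mitotic gene) was higher by 2.74 in untreated HCC and lower with miR-22 (-0.80, edgeR adjusted p = 0.0103), in the same order of groups as the proliferation genes, and Naip6 was higher by 1.11 in untreated HCC. These are 2 of 8 called in untreated HCC against 40.8% of all tested genes, and 1 of 8 with miR-22 against 13.8%. The Birc5 call with miR-22 was lost without untreated HCC replicate 2 (-0.68). In miR-22-treated HCC both were above healthy livers, by 1.94 and 1.14, which is 2 of 8 against 24% of all tested genes. Naip6 was not called without healthy replicate 2 or healthy replicate 3 in either comparison, or, for miR-22-treated HCC, without its replicate 2, with log2 values of 0.84, 1.06, 0.87, 1.09 and 0.98 in that order, and Birc7 had 0 counts in all libraries. Of 5 tested genes of MCL1 protein turnover, edgeR and DESeq2 called 0 in each comparison, and 3, 1 and 2 had an unadjusted p under 0.05 in edgeR for untreated HCC against healthy livers, miR-22-treated against untreated HCC, and miR-22-treated HCC against healthy livers. Of all tested genes, edgeR called 40.8%, 13.8% and 24% in the same order.

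Transcription factors that act on BCL2 family genes were taken as a further list, of which 15 were tested. In untreated HCC, 7 were higher and 3 lower by edgeR, against 40.8% of all tested genes, and DESeq2 called 7 of the 15, without Jun, Foxo1 and Ddit3. In edgeR, E2f1 (1.57), Jun (1.40) and Trp53 (1.23), which encodes p53, led those that rose, and Foxo3 (-1.03), Foxo1 (-0.72) and Stat5b (-0.66) fell. With miR-22, Cebpb (1.07, edgeR adjusted p = 7.73e-04), Foxo1 (0.99, edgeR adjusted p = 0.0184) and Foxo3 (0.95, edgeR adjusted p = 9.88e-04) were higher and Trp53 lower (-0.59, edgeR adjusted p = 0.00682), so 4 of 15 were called against 13.8% of all tested genes. Foxo1 was at 29.5, 82.0 and 44.5 CPM in miR-22-treated HCC and 23.4, 24.8 and 29.8 CPM in untreated HCC, so these groups overlapped, and without miR-22-treated HCC replicate 3, the highest liver, its difference was 0.51 and not called (edgeR adjusted p = 0.0648). It was also not called without untreated HCC replicate 2 (0.92) or replicate 3 (0.96). Its call in untreated HCC against healthy livers was lost without healthy replicate 1, healthy replicate 2, untreated HCC replicate 2 or untreated HCC replicate 3 (-0.69, -0.70, -0.65 and -0.68), and the call of Jun without healthy replicate 2 or 3 or the same untreated livers (1.01, 0.99, 1.34 and 1.36), while without healthy replicate 1 Jun was at 2.81. Among the 7 that were higher in untreated HCC, Myc (0.78, edgeR adjusted p = 0.05 as rounded, with overlapping groups) was lost without healthy replicate 1 or 2 or untreated HCC replicate 2 or 4 (edgeR adjusted p = 0.0972 to 0.186), and Ddit3 (0.59) without healthy replicate 1 or 3 or the same untreated livers (edgeR adjusted p = 0.0535 to 0.0949). Foxo3 kept both calls without any one of the livers. Trp53 with miR-22 was under the fold threshold without untreated HCC replicate 3 (-0.51) or miR-22-treated HCC replicate 3 (-0.47). E2f1 (1.29), Cebpb (0.80) and Trp53 (0.64) were higher in miR-22-treated HCC than in healthy livers, 3 of 15 against 24% of all tested genes. Trp53 was not called there without healthy replicate 2 (0.56) or miR-22-treated HCC replicate 4 (0.50). FOXO factors and p53 are known activators of BH3-only genes, and their part in the differences of the family was not tested. Trp73 had 0 counts in all libraries.

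The promoters of the family were read for FOXO, E-box and p53 letters, in RefSeq windows of 300 bases from 250 before the start (GRCm38.p6), which were found for 9 members in 16 windows. The FOXO letters GTAAACA or TGTTTAC were in 1 window of Bbc3, at -167 from the start, and in 1 of Bcl2l11, at -227, against 3.65% of 32851 windows. The stretches, with these letters in capitals, are at chr7:16310084-16310110 and chr2:128125801-128125827, both on the plus strand.
Bbc3, FOXO letters: ctggcgggttTGTTTACaaacaatggg
Bcl2l11, FOXO letters: agacactaggGTAAACAcgccggggtg
None of the 3 windows of Bmf held these letters. The E-box CACGTG, bound by MYC among others, was in the Bax window at -9 and at 35 from the start and in 1 window of Bbc3, against 7.15% of windows. The Bax stretches are at chr7:45466892-45466917 and chr7:45466849-45466873 on the minus strand.
Bax, E-box at -9: cgatgatgatCACGTGactagtcctg
Bax, E-box at 35: gcggggcaccCACGTGagggccgca
The p53 half-site was in the Bax window and in 1 Bmf window, against 8.36% of windows. These are matches of letters and not measured binding, and both strands were searched.

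Among all tested genes, the one whose log2 CPM followed each member most closely over the 9 libraries was found by Pearson correlation, as a description of points that share groups and libraries. Bcl2 was closest to Tm4sf4 (r = 0.998), Bax to Gm7298 (0.997), Mcl1 to Cntnap1 (0.995), Pmaip1 to Plet1 (0.995), Bcl2l1 to Atp6v0e (0.993) and Bak1 to Fam241b (0.991). For Bmf the closest was Frg2f1 (0.977), for Bcl2l11 Gm17193 (0.937), for Bbc3 4933431C10Rik (0.923) and for Bid Fgf2 (0.913).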

How the data were processed

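Whole-liver RNA of 9 mice was sequenced from non-directional libraries. Per the methods, the authors ran Salmon against GRCm39 and tximport for gene totals, followed by DESeq2 (version 1.18 per the submitters' processing notes, with FastQC 0.11.7). The deposited table holds the authors' raw counts per gene as whole numbers. Their normalized values were not used here. Counts were fitted in R 4.3.3 with edgeR 4.0.16 after TMM scaling and filterByExpr, all 3 groups together, and tested by the two-sided quasi-likelihood F test with Benjamini-Hochberg adjustment over 15717 genes. Calls needed adjusted p under 0.05 and over 1.5-fold change. CPM uses TMM-scaled library totals. Replicate libraries differed by more than counting error (chi-square per degree of freedom 6.59 to 31.3). Nothing states more than that replicates are separate livers, and the edgeR p-values set group differences against the spread between livers. The fit was tested on simulated counts. The BCL2 family genes and all lists were chosen with earlier results of these data known.

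All 10 family genes were named, and of each other list up to 3 called genes a comparison with the largest log2 fold change, genes at or under 3 counts in every library, and the gene most alike in log2 CPM (prior count 2). The stellate, endothelial, T and NK and macrophage markers, Krt19, Bik, Myc, Bcl2a1b, Bcl2l13, Ggnbp1, Casp2, Casp9, Stat5b, Ddit3, the list genes called in no comparison and, outside that rule in 1 comparison, Bnip3, Foxo1, Foxo3 and Trp53 were named after their values were seen. Some list genes that the rule names are not reported here. Gene IDs of all 10 matched GENCODE M39, used for positions, lengths and 3′ UTRs, and the miRNA and promoter letters are from RefSeq on GRCm38.p6. Alternatives were DESeq2 1.42.0, its size factors, upper-quartile scaling, library totals alone, other count filters, glmTreat, no fold threshold, a fit to 2 groups, a replicate block, a ratio pseudocount of 0.5 and leaving out each liver. The last and DESeq2 were added for list genes, and exon-union lengths for levels per kilobase, after seeing the data.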

Additional observations from a re-analysis of the deposited data

How the results depend on the processing

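The number of family genes called between the HCC groups, 2, was 4 with library totals alone or with no fold threshold, 1 when edgeR tested against a fold of 1.5 with glmTreat, and 1 to 3 when 1 liver was left out. Under the alternatives that kept all livers, the count was 6 or 7 for untreated HCC against healthy livers (7 as reported) and 4 to 7 for miR-22-treated HCC against healthy livers (5 as reported), 7 with no fold threshold. The counts without 1 liver were 6 to 8 for untreated HCC and 4 to 6 for miR-22-treated HCC against healthy livers. Library totals alone moved the median of all genes by 0.42, -0.24 and 0.19 (log2) in the 3 comparisons, and under it the signs in untreated HCC turned for Bid (0.20), Bcl2l11 (0.12) and Bbc3 (0.069), and for Bcl2l11 in miR-22-treated HCC against healthy livers (0.12). Bak1 was then called lower with miR-22 (-0.67), and Mcl1 (0.71) and Bak1 (0.75) were called higher in miR-22-treated HCC than in healthy livers. Bax with miR-22 was also called with DESeq2 size factors (-0.60), upper-quartile scaling (-0.62) and 10 counts in every library (-0.59). Bbc3 in miR-22-treated HCC against healthy livers was not called with library totals alone (-0.50) or glmTreat, and Bmf there was called with no filter on low counts (-0.75). glmTreat called neither Mcl1 in untreated HCC (edgeR adjusted p = 0.362) nor Bcl2 with miR-22 (edgeR adjusted p = 0.659).

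Leaving out 1 liver turned the sign of Pmaip1 with miR-22 (-0.62 to 0.048) and, in miR-22-treated HCC against healthy livers, of Bcl2l11 (-0.18 to 0.047) and Bid (-0.0073 to 0.20). The log2 ratio of Bcl2l1 to Bax in the last comparison ranged from -0.18 to 0.016, and that of Mcl1 to Pmaip1 with miR-22 from -0.071 to 0.52. The cause of these turns was not tested, and none of these values had passed a test. Of 297 values for single family genes under alternatives with all livers, 270 kept sign and call, 16 gained a call, 6 lost one and 5 turned. Of 180 values without 1 liver, 163 kept both, 6 gained a call, 7 lost one and 4 turned.

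Deviations of same-numbered HCC libraries from their group means correlated at -0.12, -0.13 and -0.24, and those of different-numbered ones at -0.014 to 0.13. Such values cannot show whether a number marks a shared batch, which the labels do not state. With the replicate block, 7, 2 and 5 family genes were called in the 3 comparisons, as many as without it. They were not all the same genes, since Bcl2 with miR-22 and Bbc3 in miR-22-treated HCC against healthy livers were no longer called. Under the block, Bcl2 with miR-22 was -0.75 (edgeR adjusted p = 0.0506), Bax with miR-22 was -0.59 (edgeR adjusted p = 0.0317), Bcl2l11 turned to 0.15 in miR-22-treated HCC against healthy livers, Bbc3 there was -0.44 (edgeR adjusted p = 0.275), and the log2 ratio of Bcl2l1 to Bax turned to 0.022 over the 2 shared numbers. Depth limits Pmaip1, at 9 to 16 counts in healthy livers, which drops out when 10 counts are asked of every library.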
